A study of Mus musculus with 2 samples.

Results

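Leukaemia inhibitory factor (LIF), interleukin 11 (IL11) and the transcription factor STAT3 form a signalling route that the mouse uterus uses to receive an embryo and to build the decidua around it. Its members here are 10 genes, namely the ligand genes Lif, Il6 and Il11, the receptor genes Lifr, Il11ra1, Osmr and Il6st, the kinase gene Jak1, Stat3 itself and the inhibitor gene Socs3. They were found as every probe set whose single gene symbol in the platform annotation is one of these names. That gave 21 of 22690 probe sets, covering 9 of the 10 genes and 9 of the 12393 genes named on the arrays, and no probe set carried the name Il11ra1, so the IL11 receptor chain was not analysed here.

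RNA came from implantation sites, each a stretch of pregnant uterus with a conceptus inside. The sites were dissected on day 8 of pregnancy from 4-month-old females of the C57Bl/6J X OLA129 background and hybridised to Affymetrix mouse arrays. The Cbs null group, homozygous females that lack cystathionine beta-synthase, had 1 array, and the control group had 1 array. The study asked how gene expression at these sites changes when this enzyme, which condenses homocysteine with serine, is missing. The labels give the genotype of the mother, and they do not say what allele the controls carry, how the Cbs allele was made, what genotype the conceptus had or whether animals were pooled. With 1 array per genotype no value below has a replicate error, no test between genotypes could be made, and each difference describes these 2 arrays.

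The ligands of this family share a signal-transducing receptor chain, gp130, encoded by Il6st. LIF binds a pair of gp130 and the LIF receptor, IL6 and IL11 bind gp130 together with receptor chains of their own, and oncostatin M in the mouse uses the chain encoded by Osmr. Ligand binding activates JAK kinases attached to the receptors, which phosphorylate STAT3, and STAT3 then switches on target genes, among them Socs3, whose product binds gp130 and JAK and shuts the signal down. In the mouse, maternal LIF is needed for the blastocyst to attach, and the IL11 receptor is needed afterwards for the decidua to form. Most of the regulation of STAT3 itself is by phosphorylation, which arrays of RNA do not measure.

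No member stood far from equal signal on the 2 arrays. Signals below 14.3, the 25th percentile over both arrays and here called the floor, were set to that value, and a probe set was counted where the mean of its 2 signals reached the median over all probe sets, 70.5. Of the 21 member probe sets 13 passed this filter, from the 6 genes Lifr, Il6st, Osmr, Jak1, Stat3 and Socs3. None of the 13 was 1.5-fold higher or 1.5-fold lower on the Cbs null array, where 2.60% of all 11315 probe sets past the filter were 1.5-fold or more higher and 1.65% were 1.5-fold or more lower. The shares past 2-fold were 0.636% higher and 0.336% lower, and no member reached that limit either. With 13 probe sets, a count of 0 is near what those shares give. Of the 13 ratios 7 lay above 0 and 6 below, where 52.9% of all probe sets past the filter lay above 0 and 47.0% below. Their log2 ratios of Cbs null over control ran from -0.52 to 0.38 with a median of 0.01, and the median of all probe sets past the filter was also 0.01. Lifr lay at the upper end and Socs3 at the lower end.

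**Figure D1:**
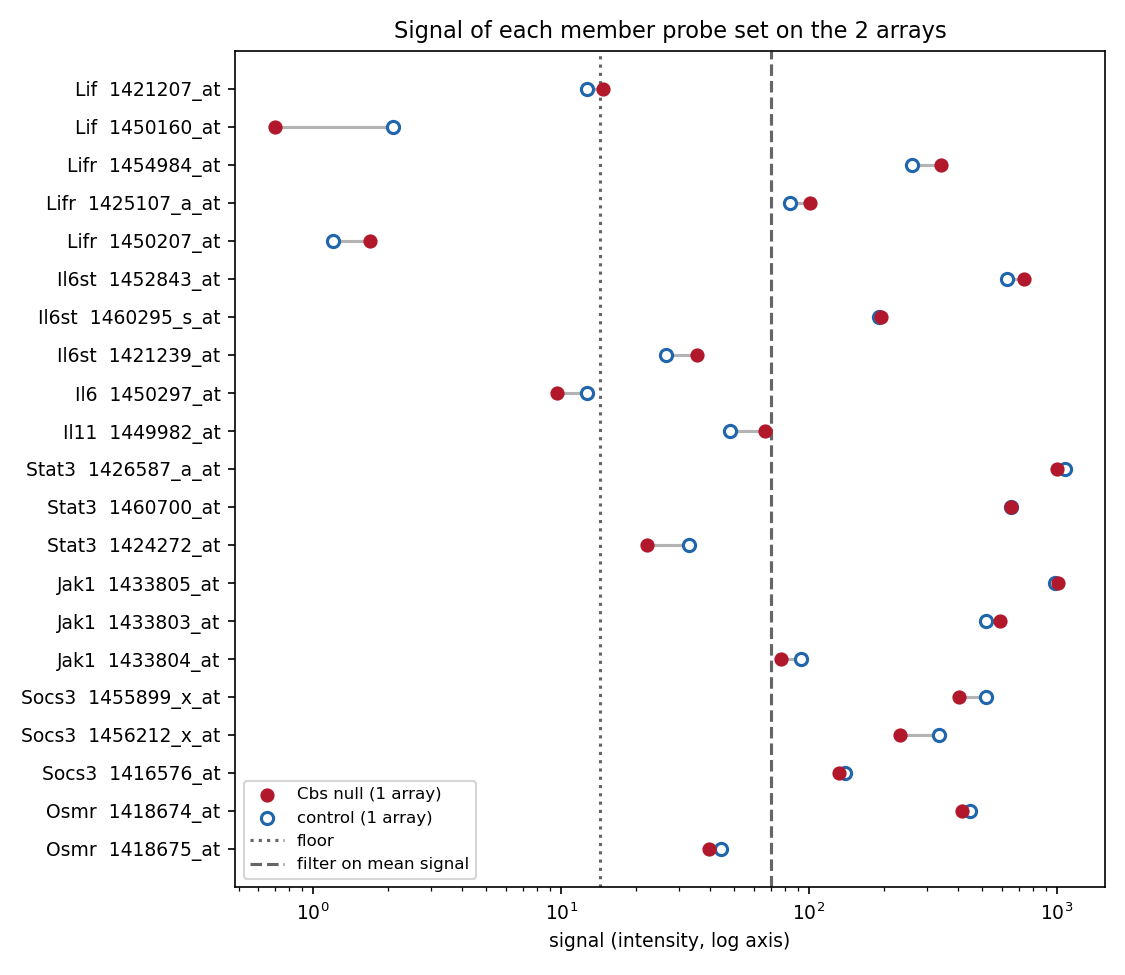
Signal of each of the 21 member probe sets (rows, gene and probe set name) on the Cbs null array (filled red) and the control array (open blue), as intensity on a log axis. The dotted line is the floor of 14.3 and the dashed line the filter of 70.5 on mean signal; all probe sets of Lif, Il6 and Il11 lie left of the dashed line, and the paired points of the 13 probe sets that passed it lie close together.

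The ligands gave little signal. Lif, the cytokine that uterine glands release before attachment, has 2 probe sets, of which 1421207_at read 14.7 on the Cbs null array and 12.7 on the control array. The other, 1450160_at, read 0.7 on the Cbs null array and 2.1 on the control array. Except for the Cbs null value of the first probe set, which exceeded the floor by a fraction of a signal unit, these values were under the floor, so no fold is given for Lif. The only probe set of Il6, a cytokine of inflammation and of decidual and immune cells, read 9.6 in Cbs null and 12.7 in control, under the floor in both. The deposited values used here come without detection calls, so these genes are described as low in signal and not as absent.

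Il11, the ligand whose receptor decidualization requires, was the ligand with values above the floor on both arrays. Its single probe set read 66.7 on the Cbs null array and 48.2 on the control array, a log2 ratio of 0.47 or 1.38-fold. Both values lay under 70.5, so Il11 was not among the counted probe sets. With a pseudocount of 14.3 added to both signals in place of the floor the log2 ratio was 0.37.

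The LIF receptor had the highest ratios among the counted member probe sets. Lifr probe set 1454984_at read 339.2 in Cbs null and 261.2 in control, 1.30-fold higher with a log2 ratio of 0.38. Probe set 1425107_a_at read 100.6 in Cbs null and 83.9 in control, 1.20-fold higher with a log2 ratio of 0.26. Both lay above 0, which was also so for 31.0% of the 1569 genes with 2 probe sets past the filter. Of all probe sets past the filter 7.41% had a ratio as high as 1454984_at or higher. The third probe set of Lifr, 1450207_at, read 1.7 and 1.2 in Cbs null and control, under the floor.

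Il6st, the chain shared by the receptors of LIF, IL6 and IL11, was slightly higher in Cbs null in one probe set and nearly equal in another. Probe set 1452843_at read 734.4 in Cbs null and 630.0 in control, a log2 ratio of 0.22, and 17.3% of probe sets past the filter had a ratio as high or higher. Probe set 1460295_s_at read 195.6 in Cbs null and 191.7 in control, a ratio of 0.03, and its sign turned, to -0.01, under quantile normalization of the arrays. The dim probe set 1421239_at, with 35.3 in Cbs null and 26.5 in control, had 0.41 and was not counted.

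Osmr, the oncostatin M receptor, lies next to Lifr on chromosome 15 with no other protein-coding gene between them in the RefSeq gene table of GRCm38.p6. Its counted probe set, 1418674_at, read 412.6 in Cbs null and 445.3 in control, 1.08-fold lower with a log2 ratio of -0.11. The dim probe set 1418675_at read 39.6 and 44.1 in Cbs null and control, with -0.16. Both probe sets of Osmr thus lay below 0, whereas the counted probe sets of its neighbour Lifr lay above 0.

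**Figure D2:**
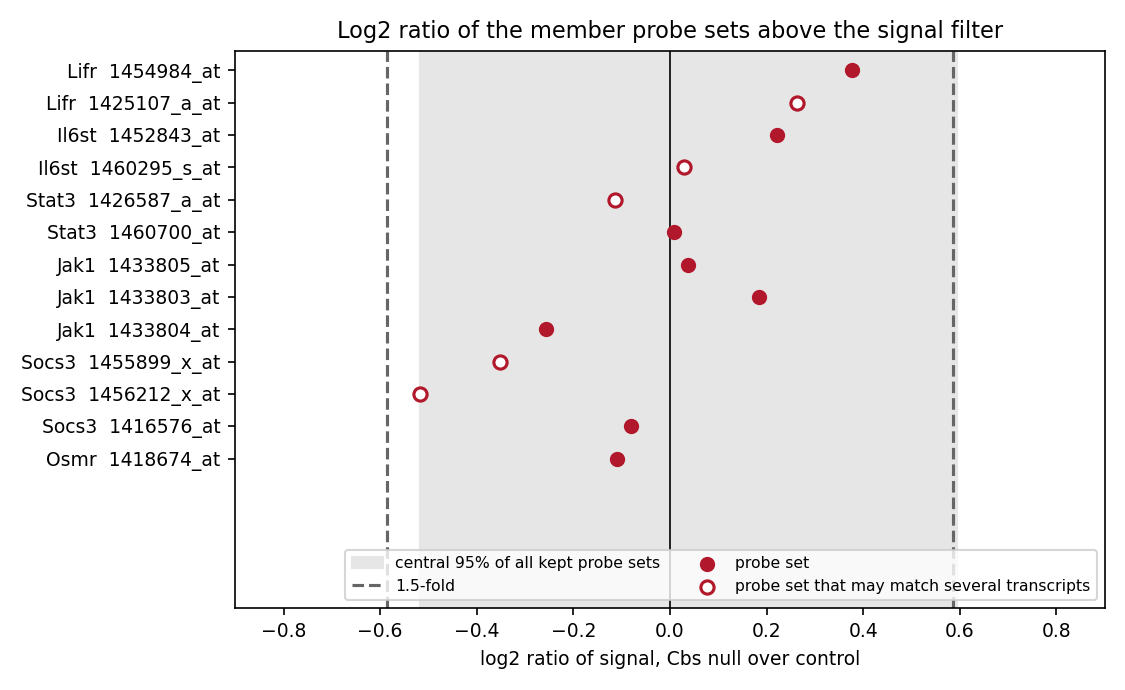
Log2 ratio of signal, Cbs null over control, for the 13 member probe sets past the signal filter, 1 point each; open points are probe sets whose name marks them as possible matches to several transcripts. The grey band is the central 95% of all 11315 probe sets past the filter, from -0.52 to 0.59, and the dashed lines are 1.5-fold; the lowest Socs3 point sits at the band's lower edge and every other point inside it.

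Stat3, the transcription factor that carries the signal to the nucleus, had nearly equal signal on both arrays in its counted probe sets. Probe set 1426587_a_at read 997.3 in Cbs null and 1079.5 in control, a log2 ratio of -0.11. Probe set 1460700_at read 655.0 in Cbs null and 651.6 in control, a ratio of 0.01 whose sign turned to -0.01 when ratios were centred on their median. The dim probe set 1424272_at read 22.3 in Cbs null and 32.9 in control, with -0.56. It was not counted, and raising the floor to the 40th percentile gave a ratio of 0.00.

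The 3 probe sets of Jak1, the kinase that acts at gp130, did not share a direction. Probe set 1433805_at read 1011.4 in Cbs null and 986.0 in control, a log2 ratio of 0.04. Probe set 1433803_at read 587.5 in Cbs null and 516.8 in control, with 0.18 (1.14-fold higher). Probe set 1433804_at read 77.4 in Cbs null and 92.5 in control, with -0.26 (1.20-fold lower). Their ratios spanned 0.44 on the log2 scale, against a median span of 0.28 over the 495 genes with 3 probe sets past the filter, so no direction can be given for Jak1 from these arrays.

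Socs3, the feedback inhibitor that STAT3 induces, had the lowest ratios among the counted member probe sets, and all 3 of its probe sets lay below 0. Probe set 1456212_x_at read 232.9 in Cbs null and 333.6 in control, 1.43-fold lower with a log2 ratio of -0.52. Probe set 1455899_x_at read 404.1 in Cbs null and 515.5 in control, 1.28-fold lower with -0.35. Probe set 1416576_at read 132.2 in Cbs null and 139.9 in control, 1.06-fold lower with -0.08. The lower ratios come from the 2 probe sets whose names mark them as possible matches to several transcripts, and without them Socs3 rests on the value of -0.08. Of the 495 genes with 3 probe sets past the filter 21.4% had all of them below 0, and 2.47% of all probe sets past the filter had a ratio as low as -0.52 or lower. The span among the 3 probe sets of Socs3 was 0.44, wider than the median of 0.28 for such genes.

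**Figure D3:**
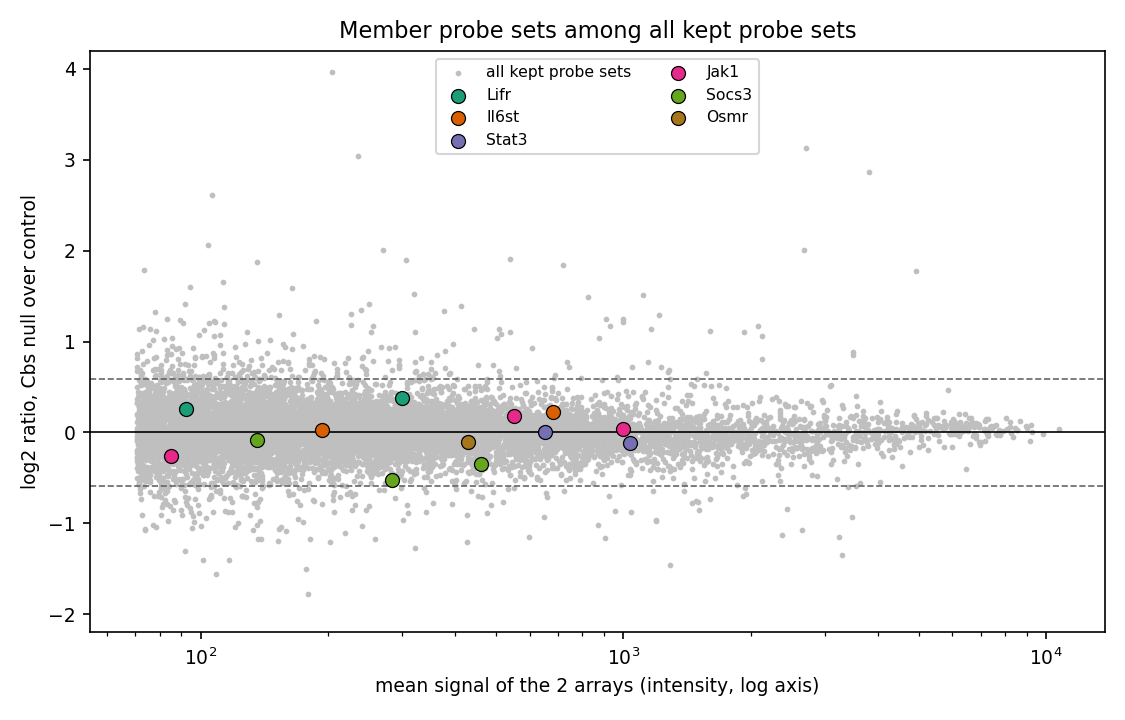
Log2 ratio, Cbs null over control, against the mean signal of the 2 arrays (log axis) for all 11315 probe sets past the filter (grey), with the 13 member probe sets coloured by gene. Dashed lines mark 1.5-fold; the members lie within the grey cloud at every signal level, with Lifr above 0 and Socs3 below 0.

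The promoter of Socs3 is shown because it was the only member promoter in which a search found the core letters of a STAT recognition element. The motif TTCNNNGAA, which reads the same on both strands, was searched in windows of 300 bases, from 250 before to 50 after each RefSeq transcript start of GRCm38.p6. It was present in 1 of 13 windows of the 10 members and in 8.30% of all 32851 windows. The Socs3 window lies on the minus strand at chr11:117969317-117969616, and the motif, in capitals, occupies bases 97 to 105 counted from its 5′ end.
Socs3: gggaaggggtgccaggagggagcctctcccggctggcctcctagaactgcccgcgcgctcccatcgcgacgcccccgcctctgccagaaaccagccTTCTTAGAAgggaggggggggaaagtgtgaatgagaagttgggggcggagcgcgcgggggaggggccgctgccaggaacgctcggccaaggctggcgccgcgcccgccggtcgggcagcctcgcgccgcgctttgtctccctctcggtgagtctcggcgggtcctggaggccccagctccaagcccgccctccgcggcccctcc
The match describes these letters only. Among the genes listed as induced by STAT3, described further on, 18 had a window and 4 of these (22.2%) held the motif, against 9.55% of all 27025 genes with a window. They were Icam1, Irf1, Zfp36 and Steap4, whose log2 ratios were 0.13, 0.23, -0.08 and -0.35, 2 on each side of 0.

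Genes that STAT3 is known to induce in various cells were mixed. Of 22 listed genes besides Socs3 all passed the filter, 10 with a ratio above 0 and 12 below, and none was 1.5-fold apart, where 2.46% of the 7079 genes past the filter reached 1.5-fold upward and 1.33% downward. Over those 7079 genes 55.0% had a ratio above 0 and 44.9% below. Their median log2 ratio was -0.07, against 0.02 for all genes. Hif1a, the hypoxia-inducible factor subunit, read 1803.0 in Cbs null and 1955.9 in control (-0.12) in its brightest probe set, and its other probe sets past the filter had -0.44 and -0.42. Mcl1, a survival protein of the BCL2 family, read 1414.2 in Cbs null and 1405.9 in control (0.01), and its other probe sets ran from -0.21 to 0.20.

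Some listed genes lay further from 0 on either side, and they are named here after their values were seen. Bcl3, a nuclear partner of NF-kappaB, read 96.8 in Cbs null and 144.8 in control, a ratio of -0.58 that lies just inside 1.5-fold. Pim1, a serine/threonine kinase that promotes survival, read 329.9 in Cbs null and 472.6 in control (-0.52), and its dim second probe set had 0.30. In contrast, Lrg1, a secreted glycoprotein of the acute phase, read 199.5 in Cbs null and 140.8 in control (0.50). Saa3, an acute phase serum amyloid protein also made by macrophages, read 118.4 in Cbs null and 85.9 in control (0.46). The immediate early gene Fos had -0.37, the growth arrest gene Gadd45g -0.39 and the transcription factor gene Cebpd 0.38. The dim second probe set of Cebpd had -0.91, on the opposite side of 0. The list therefore held genes with ratios as low as those of Socs3 beside genes on the opposite side of 0.

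Other parts of the signalling route differed little. Of 9 other ligand genes listed with the gp130 family 3 were on the arrays and only Ctf1, cardiotrophin 1, passed the filter, with 74.5 in Cbs null and 71.5 in control (0.06). None of the 4 other receptor genes on the arrays passed it. One of them, picked after its values were seen, was Il6ra, which encodes the IL6-binding chain and whose 2 probe sets read 61.8 and 37.9 in Cbs null against 49.4 and 30.9 in control. Of the other JAK and STAT genes 6 passed the filter, 3 above and 3 below 0, with a median of 0.03. Jak2 read 483.5 in Cbs null and 449.7 in control (0.10), and Stat6, which acts downstream of IL4 and IL13, read 408.8 in Cbs null and 419.3 in control (-0.04).

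The inhibitors besides Socs3 were likewise mixed. Of 15 genes 12 passed the filter, 8 above and 4 below 0, with a median of 0.01 and none 1.5-fold apart. Socs2, an inhibitor of growth hormone signalling from the same family as Socs3, read 756.0 in Cbs null and 833.8 in control (-0.14), and its other probe set had -0.38. Ptpn11, the phosphatase SHP2 that docks on gp130, read 698.2 in Cbs null and 693.0 in control (0.01). Ptpn6, the phosphatase SHP1 of blood cells, was the highest of the list, a choice made after its value was seen, at 133.3 in Cbs null and 96.4 in control (0.47).

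Uterine genes known to act downstream of LIF at attachment gave no common direction. The implantation sites were taken on day 8, after attachment, so the values below do not describe attachment itself. Of the 9 such genes on the arrays 6 passed the filter, 4 above and 2 below 0. Their median was 0.07 and none was 1.5-fold apart. A stricter filter left only Igfbp3, at -0.07, and so gave no median of several genes. Igfbp3, which binds insulin-like growth factors, read 1655.0 in Cbs null and 1734.9 in control (-0.07). Ptch1, the hedgehog receptor, read 221.3 in Cbs null and 213.6 in control (0.05). The highest and the lowest were picked after the values were seen. Coch, a secreted protein that LIF induces in the uterus, was the highest at 118.7 in Cbs null and 80.9 in control (0.55). Ptgs2, which makes prostaglandins at the implantation site, was the lowest at 115.9 in Cbs null and 152.8 in control (-0.40). The dim second probe set of Ptgs2 had 0.35.

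Genes tied to IL11 or to the growth of the decidua held the 1 gene past 1.5-fold among the 53 listed genes that passed the filter. That is 1.89% of them, near the 1.33% of all genes that were 1.5-fold lower. Bmp2, a growth factor that the decidual response requires, read 258.0 in Cbs null and 597.0 in control, 2.31-fold lower with a log2 ratio of -1.21. Of the 6 genes of this list past the filter 5 lay below 0, where 44.9% of all genes did, with a median of -0.09. A2m, alpha-2-macroglobulin, a protease inhibitor that depends on IL11 in the mouse decidua, read 5582.7 in Cbs null and 7374.5 in control (-0.40). Prl8a2, a decidual prolactin, read 3633.6 in Cbs null and 2542.7 in control (0.52), so these products of decidual cells, both picked after their values were seen, lay on opposite sides of 0. Birc5, the survival protein survivin, and Ccnd3, the cyclin of decidual polyploidy, also named after their values were seen, stood at -0.00 and -0.02.

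**Figure D4:**
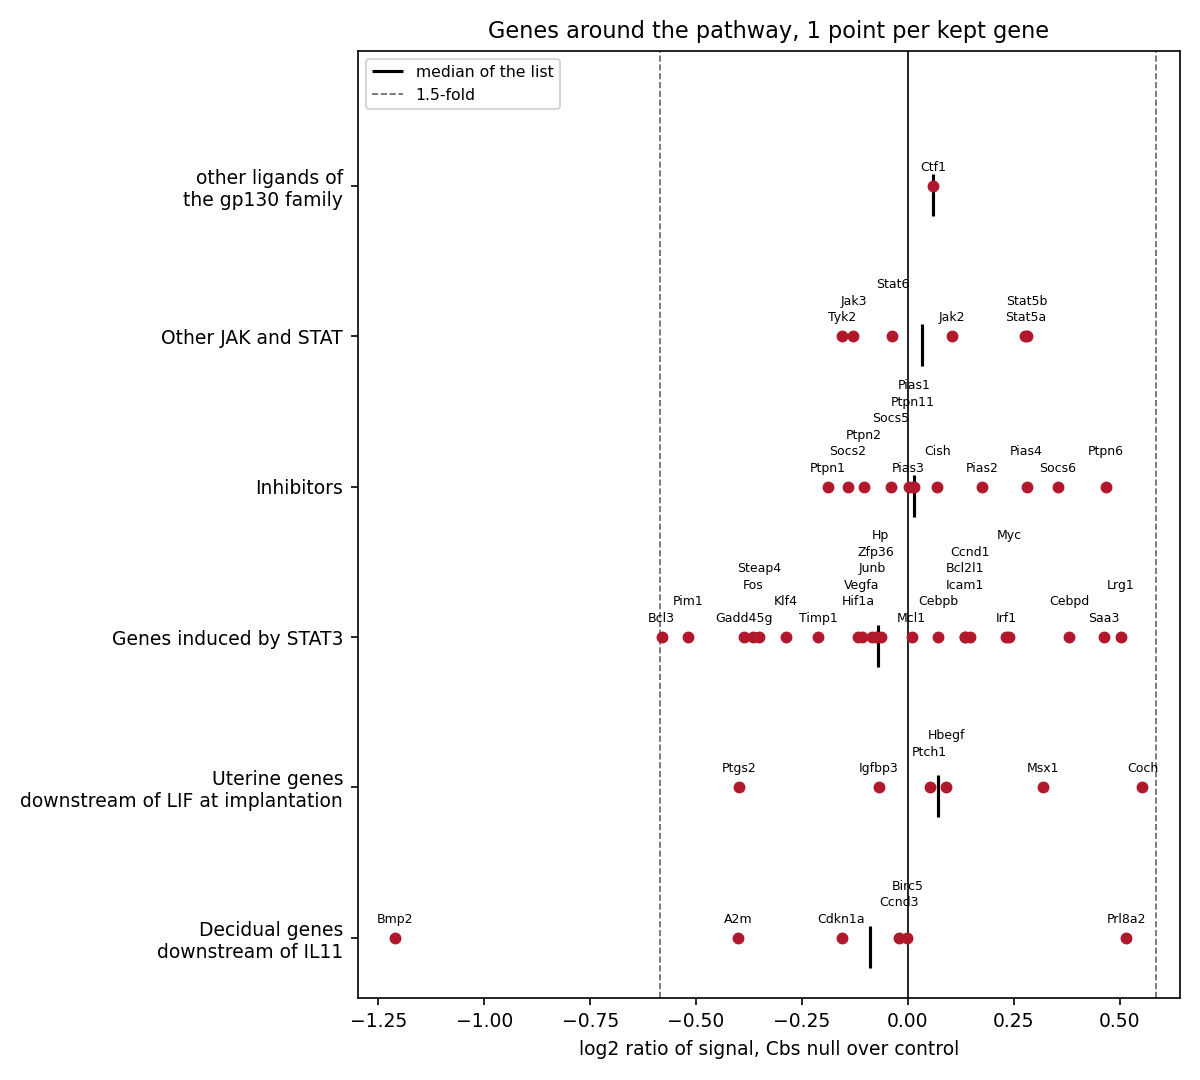
Log2 ratio of signal, Cbs null over control, of the 53 genes around the pathway that passed the filter, 1 point per gene in rows by list; short bars are list medians and dashed lines 1.5-fold. Only Bmp2 lies beyond a dashed line, and every list with more than 1 gene has points on both sides of 0.

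Markers of several cell types differed in signal between the arrays, beside the ratios given above. In bulk RNA, fewer cells of a type and less RNA per cell cannot be told apart. Markers of smooth muscle and decidual stroma, the main maternal tissues, were present on both arrays. The smooth muscle list had 5 of 5 genes past the filter with a summed signal of 24396.7 in Cbs null and 24814.7 in control, and the decidual stroma list had 8 of 8 genes with 10584.6 in Cbs null and 11412.0 in control. The stroma list includes Bmp2, and the other 7 stroma genes were within 1.5-fold. Uterine epithelium had 9 of 11 genes past the filter, 8 of them above 0, with a summed signal of 21759.9 in Cbs null and 5634.5 in control, mostly from Spink1, Prss28 and Prss29, while Cdh1, E-cadherin, stood at -0.02 and Foxa2 and Cldn4 were under the filter. The macrophage list had 8 of 8 genes, 7 above 0, with 5713.4 in Cbs null and 4280.7 in control. The list of uterine natural killer cells had 8 of 9 genes, 7 below 0, with 6045.8 in Cbs null and 13593.2 in control. Among these 7, Il2rb read 61.1 in Cbs null and 110.5 in control. Il2rb passed on mean signal through the control array alone, so the filter itself put its ratio below 0. The trophoblast list had 4 of 6 genes on the arrays past the filter, all above 0, with 1048.7 in Cbs null and 383.5 in control, and the endothelium list had 6 of 6, 4 below 0, with 2611.0 in Cbs null and 2929.3 in control. Of the yolk sac endoderm genes 2 of 4 passed the filter, both above 0, with 498.2 in Cbs null and 57.7 in control. Both fat cell genes on the arrays were over 1.5-fold higher in their brightest probe sets, with 3636.4 in Cbs null and 2110.1 in control. Over all genes past the filter 2.46% were 1.5-fold or more higher. A second probe set of the fat cell gene Fabp4 past the filter was 1.28-fold higher, and its dim probe sets had -0.26 and 0.25. Among the trophoblast and yolk sac genes past the filter, only Tpbpa had a control signal over the filter level, 228.1. Control signals were 29.8 for Ceacam11, 64.4 for Prl2b1, 61.2 for Prl4a1, 24.7 for Afp and 33.0 for Ttr. Those genes passed on mean signal through the Cbs null array alone, so the filter itself put their ratios above 0. Of the neutrophil genes 1 of 4 passed, with 567.4 in Cbs null and 724.5 in control, and Ptprc, carried by all leukocytes, stood at -0.06. The part of these cell types in the ratios of Lifr, Socs3, Ptpn6 or Saa3 was not tested.

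The trimmed mean signal was 200.08 on both, and the ratio of 3′ to 5′ signal, a sign of RNA integrity, was 1.15 in Cbs null and 1.07 in control for Gapdh, and 1.61 in Cbs null and 1.54 in control for beta-actin. The 2 probe sets of Cbs read 23.8 and 22.3 in Cbs null against 30.3 and 29.9 in control, too dim to check the genotype. As a measure of noise within the arrays, the ratios of the 2 brightest probe sets of the same gene differed with an SD of 0.30 over 2284 genes, which is 0.21 for 1 probe set. Of the 13 counted member ratios 6 were further from 0 than 0.21, those of 2 probe sets of Socs3, 2 of Lifr, 1 of Il6st and 1 of Jak1. That SD covers disagreement between probe sets and not variation between animals. Over all 11315 probe sets past the filter the ratios had an SD of 0.28. How many of those lay further from 0 than 0.21 was not counted, so the 6 member ratios are not read as standing out.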

How the data were processed

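Total RNA of implantation sites was labelled and hybridised to Affymetrix arrays, per the labels' protocols, 1 Cbs null and 1 control. The authors deposited linear intensity values for each probe set. The submitters' processing notes name GCOS 1.4, and the algorithm, build and detection calls behind the values are unstated in the labels. Trimmed means were equal, so no further scaling was applied. Of 22690 probe sets 64 controls were set aside. A single symbol was given for 20380 probe sets, 20351 of them matched by identifier to RefSeq (GRCm38.p6), several symbols for 691 and none for 1555. Log2 ratios used a floor of 14.3 and counts a filter of 70.5 on mean signal. A gene was represented by its brightest probe set past the filter. Precision is limited by the number of arrays, and no p-value was computed.

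The members, the gene lists and the limits were chosen with earlier results of these data known. The text names all members, Cbs and, from each pathway list, every gene past the filter at least 1.5-fold apart or else the 2 brightest. Other pathway genes, and single cell type markers, were picked after their values were seen. No likeness across samples was ranked, since 2 arrays give no pattern. Alternatives were quantile normalization, median centring, a loess trend (span 0.3), other floors and filters, a pseudocount of 14.3, omission of probe sets marked as possible matches to several transcripts, and the median over probe sets. Scripts ran in Python 3.11.15 and were tested on simulated data.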

Additional observations from a re-analysis of the deposited data

How the results depend on the processing

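No paired analysis was possible because each genotype has 1 array and no test was made. The count of 0 member probe sets past 1.5-fold in either direction held under all 10 alternatives that give it, and so did the count of 0 past 2-fold. Most of these could only give 0. The other floors left the counted ratios unchanged, and the stricter filter and the omission of probe sets counted a part of the same ratios. The looser filters added dim probe sets whose ratios, given above, were not past 1.5-fold. Median centring moved each ratio by 0.01, and the pseudocount only drew ratios toward 0. Only quantile normalization and the loess trend could thus have changed the count. The uncounted Stat3 probe set 1424272_at had -0.59 with the loess trend removed, just past 1.5-fold. The 13 counted member probe sets had 78 ratios under the scaling and floor alternatives. None moved by more than 0.21, the SD of 1 probe set within a gene, and 2 changed sign (Il6st 1460295_s_at and Stat3 1460700_at, both within 0.03 of 0). Part of these ratios could not have moved that far. Neither changed floor reached the lowest counted signal, 77.4 for Jak1 1433804_at in Cbs null, and median centring took the same 0.01 from each ratio. The pseudocount only draws ratios toward 0, and at these signals by too little to reach 0.21. The stability thus rests on quantile normalization and the loess trend. Lifr 1454984_at ranged from 0.35 to 0.38 and Socs3 1456212_x_at from -0.55 to -0.49. The share of all probe sets past 1.5-fold was 5.54% higher and 4.18% lower when the 25th percentile was the filter, and 4.22% higher and 3.20% lower with no filter; past 2-fold these shares were 1.42% and 0.937%, and 1.07% and 0.703%. The pseudocount gave 0.203% for 2-fold lower, against 0.336%. The median of the other ligands was 0.41 with either looser filter, against 0.06, because dim genes joined Ctf1. The other list medians stayed within 0.21 of their values under each alternative, but 3 near 0 changed sign. A filter at the 75th percentile gave -0.07 for the genes downstream of LIF, where it left only Igfbp3. The same filter gave -0.10 for the inhibitors, which also had -0.00 with median centring. The other JAK and STAT genes had -0.04 when probe sets with possible matches to several transcripts were left out. A floor at the 40th percentile took the dim probe sets of Il6st and Stat3 to 0.00, and a floor at the 10th gave Il6 -0.40. Low signal limits Lif, Il6 and Il11, and the absence of replicates limits every ratio.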

Other observations

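Neutrophil genes, which include the receptor of another cytokine that signals through STAT3, gave low or unequal values on these arrays. Csf3r, the receptor of granulocyte colony-stimulating factor, read 44.6 in Cbs null and 22.4 in control, under the signal filter on the mean of the 2 arrays. S100a8 and S100a9 encode the partners of calprotectin, a calcium-binding complex that neutrophils carry in large amounts. S100a9 read 113.0 in Cbs null and 15.7 in control, a control value close to the floor of 14.3, and its mean was also under the filter, so no fold is given. S100a8, which passed the filter, read 567.4 in Cbs null and 724.5 in control, a log2 ratio of -0.35. Each has 1 probe set here, and Cxcr2, the chemokine receptor of these cells, was under the floor in both. The values were picked after they were seen and have no replicate.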
